A study of Mus musculus with 8 samples.

Results

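Myeloid nuclei of the mouse kidney were defined here as quality-filtered nuclei with at least 1 UMI of at least 2 of 6 macrophage and monocyte genes (Csf1r, C1qa, C1qb, Adgre1, Mrc1 and Cx3cr1) and with no UMI of Skap1, an adaptor of T cells, or of Flt1, a receptor of endothelial cells. The rule found 1567 nuclei among 81391 (1.93%), and it used measured UMIs, so the levels of these 8 genes describe the choice, and no test of them is reported. Single-nucleus RNA-seq had been made on central cross-sections of kidneys, with cortex and medulla, from 8 male C57BL/6J mice, 2 per group, each library coming from a different mouse. The 4 groups were Ctrl (Bmal1lox/lox) and cKOt (Bmal1lox/lox/Pax8-rtTA/LC-1) mice, each sampled at ZT4, in the light phase, and at ZT16, in the dark phase. All mice, Ctrl included, carried the floxed Bmal1 alleles and had received doxycycline at 2 mg/ml for 2 weeks from 8 weeks of age. The Pax8-rtTA and LC-1 transgenes drive Cre in renal tubule cells, so the Bmal1 gene (Arntl in the tables) is not the target of deletion in myeloid cells, and kidneys were perfused with PBS before the nuclei were isolated and sorted by DAPI. Both time points are single samplings of the day and do not trace a rhythm.

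Kidney macrophages lie between the tubules and the capillaries, where they take up debris and immune complexes, present antigen on MHC class II and depend on signals through the CSF1 receptor. Some are seeded before birth and renew in place, others arrive from blood monocytes that carry Ccr2. Like most cells they hold a molecular clock, in which BMAL1 pairs with CLOCK or NPAS2 to drive Per, Cry and Nr1d genes, whose products in turn repress BMAL1, CLOCK or both.

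The 8 libraries held between 36548873 and 54500820 UMIs in quality-filtered nuclei, and the myeloid nuclei held 5570088 in all. A myeloid nucleus had a median of 2274 UMIs and 1393 genes, against 3713.5 UMIs and 1862 genes in the other nuclei. Scrublet marked 115 of the myeloid nuclei (7.34%) as doublets, against 5.33% of the rest, and they were kept. Of 80565 distinct barcodes, 823 occurred in more than 1 library, at most 42 in a pair of libraries, and none of the shared ones was a myeloid nucleus in both. Replicate libraries of a group differed beyond counting noise in every group, with a chi-square per degree of freedom of 2.38 to 3.5 over genes.

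Many of the chosen nuclei sat at the threshold. Exactly 2 of the 6 genes were seen in 765 nuclei (48.8%), 3 in 412, 4 in 272, 5 in 97 and all 6 in 21. Adgre1, which encodes the macrophage surface protein F4/80, had a UMI in 66.6% of them and in 0.654% of the other nuclei, and Csf1r, the CSF1 receptor, in 62.9% and 6.26%. The mannose receptor gene Mrc1 had one in 46.8% and 0.847%, the fractalkine receptor gene Cx3cr1 in 42.1% and 2.41%, and the complement genes C1qb and C1qa in 35.7% and 31.0%, against 0.426% and 0.386%. A further 219 nuclei had 2 or more of the 6 genes but were left out, 155 of them with Flt1 and 68 with Skap1. Csf1r with Adgre1 was the most frequent pair, in 594 nuclei, and Csf1r with Cx3cr1 was seen in 418, of which 181 had none of the other 4 genes.

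Genes that the rule did not use described both sides of the threshold. For 24 general myeloid genes, Ptprc (CD45), Cd74, Spi1 and Fyb among them, the summed level was 736 CPM (counts scaled to a common total of UMIs) in nuclei with exactly 1 of the 6 genes. It was 5283 CPM in nuclei with exactly 2, 13311 CPM with 3 and 16228 CPM with 4 or more. Levels of 12 proximal tubule genes, such as the phosphate transporter gene Slc34a1 and the endocytic receptor gene Lrp2, ran the other way, at 7785, 6313, 3816 and 2202 CPM in the same order. Nuclei with exactly 2 genes thus held both myeloid and tubule profiles, and the label was checked by sub-clustering the 1567 nuclei on variable mRNAs without the genes of the rule.

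**Figure D1:**
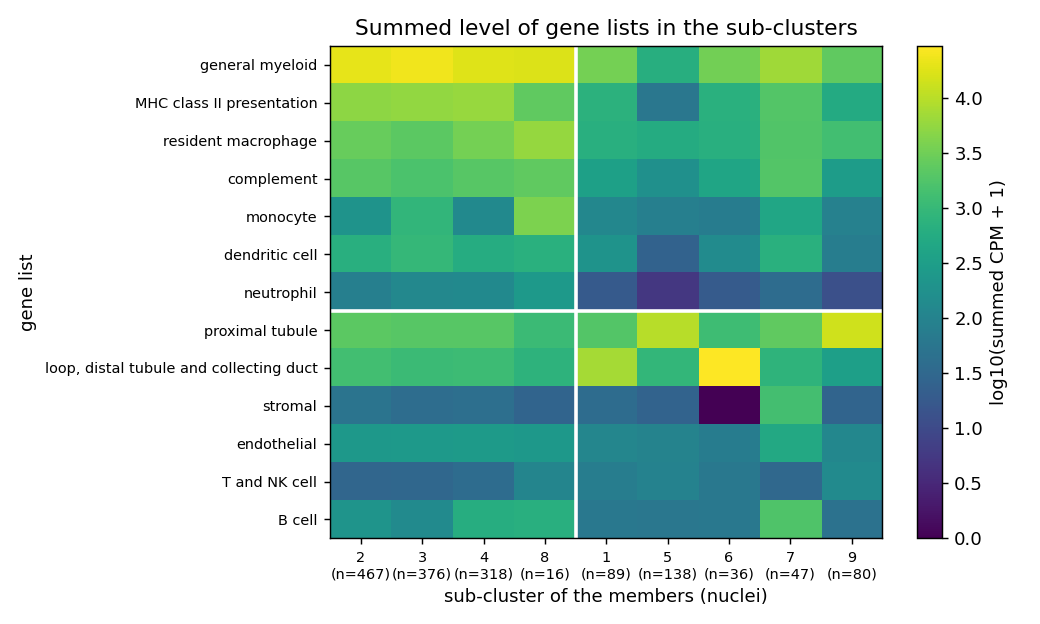
Summed level of 13 gene lists (rows) in each of the 9 sub-clusters of the chosen nuclei (columns, with their numbers of nuclei), on a colour scale of log10(CPM + 1) of mRNA UMIs pooled over the nuclei of a sub-cluster. White lines divide myeloid lists from lists of other cells and the 4 myeloid-like sub-clusters from the other 5. The lists keep genes of the rule, C1qa and C1qb in complement, Flt1 in endothelial and Skap1 in T and NK cell. These rows therefore partly reflect the choice of nuclei. Sub-clusters 2, 3, 4 and 8 held between 17126 and 23695 CPM of general myeloid genes.

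Of 9 sub-clusters, 4 carried the myeloid genes. Called myeloid-like below, they held 1177 nuclei (75.1%), but only 43.3% of the UMIs, with a median of 1907 UMIs and 3 doublets (0.255%). General myeloid genes summed to 18830 CPM in them, against 678 CPM in proximal tubule nuclei and 822 CPM in endothelial nuclei. T and NK nuclei stood at 3787 CPM, and none of these classes had any of the 6 genes. Proximal tubule nuclei were those with a UMI of Lrp2 and of Slc34a1 and none of Skap1 or Flt1. Of these, 62.2% also had a UMI of the loop of Henle gene Slc12a1. Endothelial nuclei had at least 2 UMIs of Flt1 and none of Skap1. T and NK nuclei had a UMI of Skap1 and of Cd247, Themis or Bcl11b, and none of Flt1. The other 5 sub-clusters held 390 nuclei (24.9%) with 56.7% of the UMIs, a median of 6948.5 UMIs, 28.7% doublets and 1854 CPM of general myeloid genes. By these genes the 390 nuclei went against the label as a pool. Their sub-clusters varied, from 640 CPM of mRNA UMIs in one of 138 nuclei to 3489 CPM in one of 89 and 6895 CPM in one of 47. The same list helped to divide both kinds of sub-cluster, so this contrast follows from the division and is a description. The share of nuclei in myeloid-like sub-clusters was 60.7% among those with exactly 2 of the 6 genes, 86.9% with 3 and 95.2% with all 6. The bound between both kinds of sub-cluster was set after the sub-clusters had been seen, so results are given for all 1567 nuclei and for the 1177.

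The myeloid-like sub-clusters differed in their leading genes, which chose them and are not tested. The largest, with 467 nuclei, was led by Igf2bp3, Btbd11 and Dlc1, and among its first 10 genes was the B cell and macrophage lectin gene Cd72. Of the interferon list, 1 gene was among those 10, and 5 of 20 stood at least 2-fold above the other chosen nuclei and were seen in 10% of the sub-cluster, against 6 of 20 in the smallest sub-cluster. The list summed to 1371 CPM of mRNA UMIs in the largest, against 1113, 718 and 1350 CPM in the others. The next, with 376 nuclei, was led by Ccr2, the receptor that brings monocytes into tissue, at 610 CPM of all UMIs and with a UMI in 59% of its nuclei, against 74, 3 and 0 CPM in the other sub-clusters. Sirpb1a, Gpr141 and Adgre4 were among the genes that followed, and the dendritic cell integrin gene Itgax stood at 117 CPM there, against 63, 9 and 0 CPM. Ly6c2, which marks classical monocytes of the blood, had no UMI in any of the 4.

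Another sub-cluster of 318 nuclei was led by Dscam, Bank1, Igf1, Lyz2 and Alox5, with the scavenger receptor gene Stab1 and the lipid carrier gene Apoe close behind. Igf1, a growth factor, stood at 213 CPM there, against 54 CPM in the Igf2bp3-led and 11 CPM in the Ccr2-led nuclei, and the lysozyme gene Lyz2 at 244 CPM against 32 and 76 CPM. Bank1 is best known from B cells, and at 470 CPM it was the only one of 10 B cell markers that stood at least 2-fold above the other nuclei and was seen in 10% of them. The smallest sub-cluster, with 16 nuclei, was led by F13a1, at 3559 CPM, Cd163, a scavenger receptor for haemoglobin, and Clec10a. MHC class II genes summed to 5182, 5619 and 6206 CPM of mRNA UMIs in the 3 large sub-clusters and to 2409 CPM in the smallest. Over the 8 libraries the Igf2bp3-led nuclei made up 35.8 to 47.3% of the myeloid-like nuclei, the Ccr2-led 24.6 to 36.8%, the Bank1-led 19.1 to 32.1% and the smallest 0 to 4.5%, so no large sub-cluster belonged to a single mouse.

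The other 390 nuclei carried genes of the kidney's own cells. A group of 138 was led by Cyp7b1, a sterol hydroxylase, with the transporter gene Slc22a19, and 91.3% of its nuclei had exactly 2 of the 6 genes. Csf1r was one of them in 96.4% and Cx3cr1 in 73.2%, whereas Adgre1 had a UMI in 10.9% and C1qa in 7.25%, and general myeloid genes were the lowest of the 9 sub-clusters there. A group of 80, of which 45% were called doublets, was led by proximal tubule genes such as Slc34a1 and the gluconeogenic gene G6pc. The loop of Henle genes Egf, Slc12a1 and Umod led 36 nuclei, distal tubule genes such as Slc12a3 and Trpm6 were among the leaders of 89, and Lama2 and Fbln5, genes of the extracellular matrix, were among the leaders of 47.

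Beyond the rule, the genes with the highest ratio of the 1567 chosen nuclei to other nuclei were immune genes. Among 2591 mRNAs with a UMI in at least 20% of the 1567 nuclei, Ms4a7, a macrophage membrane protein, ranked first at 87.3 CPM against 0.561 CPM in the other nuclei, a ratio of 155. The lowest of the 8 libraries still held 48.6 CPM of it, and the highest value of any library's other nuclei was 0.783 CPM. Inhibitory and activating receptors of leukocytes followed, with Lilra5 at a ratio of 153, Lilrb4a at 121 and Lair1 at 117. Ly86, a partner of a toll-like receptor, stood at 116, the inflammasome sensor gene Nlrp1b at 106 and Cybb, the catalytic subunit of the phagocyte NADPH oxidase, at 104. Spi1, which encodes the myeloid master regulator PU.1, had a ratio of 84.4, the lysosomal protease gene Ctss 77.7 and the kinase gene Btk 72.0. Fyb, an adaptor of leukocyte adhesion, was the most widely seen of the 25 mRNAs with the highest ratio, with a UMI in 75.1% of the nuclei and 2.36% of the rest. Among 47 lncRNAs, Gm35154 led at 300 CPM against 2.15 CPM, a ratio of 139, followed by Gm2245 at 84.8, F630028O10Rik at 65.3 and Gm26740 at 61.9. Mir142hg, the host of a microRNA of blood cells, stood at 26.2. As the nuclei were chosen by genes that go with these, the ratios are a description.

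Tubule transcripts were seen in the myeloid-like nuclei as well. Lrp2 had a UMI in 49.3% of them and in 51.1% of endothelial nuclei, Slc34a1 in 63.4% and 64.1%, and Slc12a1, the salt transporter of the loop of Henle, in 59.6% and 59.9%. Both kinds of nuclei should lack these genes. Summed over the 12 proximal tubule markers, the level was 1863 CPM in the myeloid-like nuclei, with a range of 1542 to 2216 CPM over the libraries. This was 17.7% of the level in proximal tubule nuclei, which were chosen by Lrp2 and Slc34a1, both among the 12. For some genes that tubule cells express strongly, a difference between groups is therefore given below with the level in proximal tubule nuclei. The part of tubule RNA in the results was not tested. Only 53 of the 1567 nuclei had no UMI of the tubule markers, too few for a comparison of their own.

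The share of myeloid nuclei did not separate the groups. In Ctrl mice it was 1.94% and 2.73% at ZT4 and 2.16% and 1.67% at ZT16, and in cKOt mice 1.60% and 1.86% at ZT4 and 2.25% and 1.32% at ZT16. The ranges of both times and of both genotypes overlapped, although at ZT4 both Ctrl libraries lay above both cKOt libraries. ZT16 libraries averaged 1.85% ± 0.435 (SD, n = 4) and ZT4 libraries 2.03% ± 0.486, a difference of -0.182 percentage points (two-sided exact permutation test, p = 0.657). The share was 1.76% ± 0.394 in cKOt and 2.12% ± 0.450 in Ctrl mice (n = 4 each), a difference of -0.367 percentage points (exact permutation p = 0.286), where 0.0286 is the smallest p that 4 against 4 libraries can give. In the myeloid-like nuclei alone the differences were -0.256 (exact permutation p = 0.429) and -0.268 percentage points (p = 0.4), over 1.00 to 2.22% per library. The difference between times was 0.0129 percentage points, of the other sign, for nuclei with at least 3 of the 6 genes (exact permutation p = 0.971) and 0.0506 without Ctrl ZT4 replicate 2, the library with the highest share. After thinning every nucleus to 800 UMIs the shares ran from 0.689 to 1.35%.

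**Figure D2:**
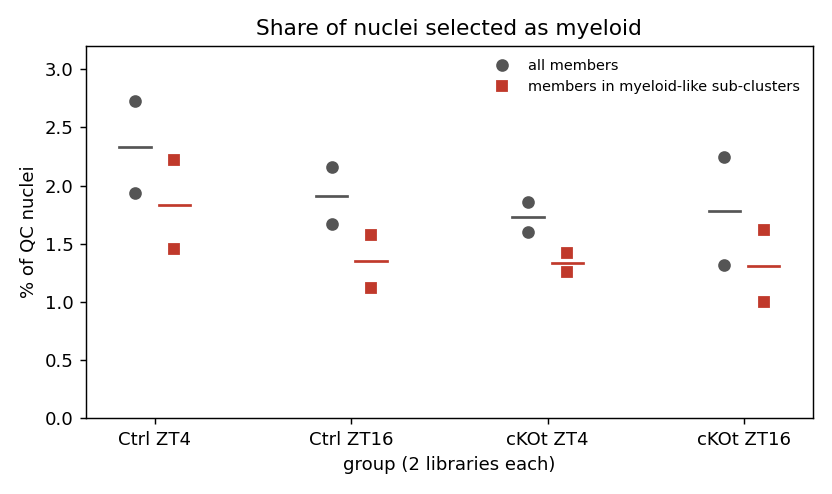
Share of quality-filtered nuclei (%) that met the myeloid rule, by group, with the myeloid-like sub-clusters beside it. Each point is 1 mouse, 2 per group, and the bars mark the mean; values ran from 1.32 to 2.73% for all chosen nuclei.

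Arntl, the gene deleted in tubules, was examined first. Reads over the whole gene do not show whether the floxed exon is present, so its level here does not check the deletion. Among the myeloid-like nuclei, Arntl was at 79.6 and 48.3 CPM of mRNA counts in Ctrl ZT4, 63.6 and 49.7 in Ctrl ZT16, 47.8 and 75.9 in cKOt ZT4 and 77.2 and 70.2 in cKOt ZT16, from 9 to 24 counts per library. The ranges of both genotypes and of both times overlapped, although at ZT16 alone both cKOt libraries lay above both Ctrl libraries. In proximal tubule nuclei of the same libraries it was at 23.1 and 23.6 CPM in Ctrl ZT4 and at 187 and 182 in Ctrl ZT16, and at 313, 218, 305 and 282 CPM in the cKOt libraries, so that there every Ctrl library lay below every cKOt library and the Ctrl times lay apart. The genotype difference was 0.21 ± 0.29 (log2, SE; edgeR adjusted p = 0.989) in the myeloid-like nuclei and 2.09 ± 0.13 in proximal tubule nuclei, and the difference between both was itself called, at -1.84 ± 0.29 (adjusted p = 0.00601). The time difference in Ctrl mice was -0.06 ± 0.41 against 2.98 ± 0.19, with a difference of -3.04 ± 0.42 (adjusted p = 0.00163). The genotype call missed the threshold without Ctrl ZT16 replicate 1 (adjusted p = 0.0657), cKOt ZT16 replicate 1 (0.0782) or cKOt ZT16 replicate 2 (0.101), and the time call without Ctrl ZT4 replicate 1 (0.0919). Over the 8 fits with a library left out, the first difference ran from -2.18 to -1.60 and the second from -3.44 to -2.68. Against endothelial nuclei, in which Arntl stood at 48.6 and 41.5 CPM in Ctrl ZT4 and 108 and 123 CPM in Ctrl ZT16, the corresponding differences of -0.66 ± 0.30 (adjusted p = 0.854) and -1.37 ± 0.42 (adjusted p = 0.463) were not called. Over all 1567 nuclei, Arntl was higher in cKOt mice by 1.40 ± 0.17 (adjusted p = 0.000594), with values of 40.7 to 48.8 CPM in Ctrl ZT4, and the 390 nuclei of the other sub-clusters are part of that sum.

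Among 20 clock genes, 12 had enough counts to be tested in the myeloid-like nuclei over both times and genotypes. None was called between ZT16 and ZT4, and Npas2 alone was called between genotypes. Npas2, the partner of BMAL1 in place of CLOCK, had 0 and 2.41 CPM in Ctrl ZT4, 9.08 and 9.94 in Ctrl ZT16, 58.5 and 42.1 in cKOt ZT4 and 54.7 and 54.0 in cKOt ZT16. Every cKOt library lay above every Ctrl library (log2 difference 3.52 ± 0.53, adjusted p = 0.00101). It rested on 54 counts in all and was seen in 4.16% of the nuclei, and proximal tubule nuclei, 51.3% of which had a UMI, held 23.1 and 34.6, 205 and 182, 577 and 539, and 521 and 539 CPM in the same order. Pooled over libraries, the myeloid-like level was 0.0772 times the proximal tubule level, below the 17.7% of the tubule marker list, and the part of tubule RNA in the difference was not tested. The difference between both kinds of nuclei in the genotype effect on Npas2, 0.94 ± 0.63, was not called (adjusted p = 0.891).

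The feedback genes gave values without a call. Per2, a repressor that peaks at night in many tissues, was at 12.6 to 16.9 CPM in the ZT4 libraries and at 21.6 to 44.7 CPM in the ZT16 libraries, without overlap (1.07 ± 0.44, adjusted p = 0.756), from 3 to 12 counts per library. Nr1d2, which encodes the repressor REV-ERB beta, ran the other way, at 47.8 to 74.8 CPM at ZT4 and 27.0 to 59.6 CPM at ZT16 (-0.79 ± 0.33, adjusted p = 0.756), and these ranges overlapped. In proximal tubule nuclei it fell from 191 and 186 CPM in Ctrl ZT4 to 38.5 and 41.2 CPM in Ctrl ZT16. Cry1, another repressor, was at 24.9 and 19.3 CPM in Ctrl ZT4 and 45.4 and 24.8 CPM in Ctrl ZT16, against 4.35 and 3.47, and 36.7 and 36.9 CPM in proximal tubule nuclei. The time effects in Ctrl mice differed between both kinds of nuclei by -2.49 ± 0.59 for Cry1 (adjusted p = 0.378) and by 1.51 ± 0.42 for Nr1d2 (adjusted p = 0.694), and neither was called. Clock was at 130 to 249 CPM in all libraries, with a time difference of -0.04 ± 0.22 (adjusted p = 0.988).

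**Figure D3:**
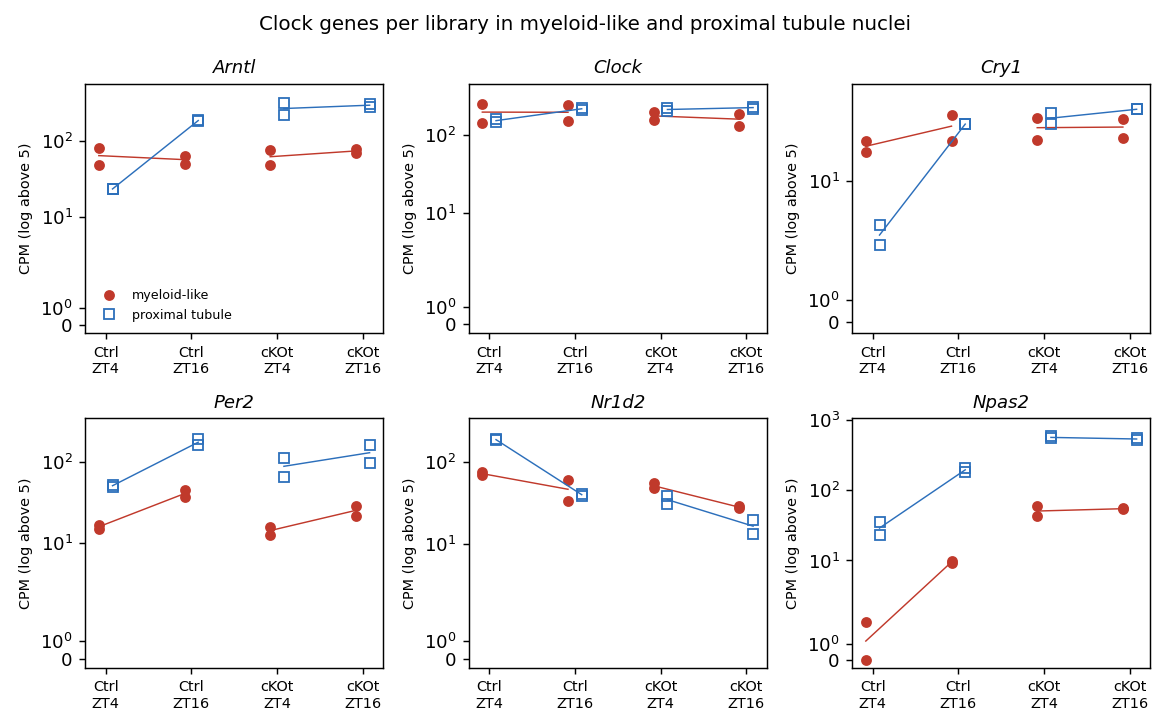
Level of clock genes in the myeloid-like nuclei and in proximal tubule nuclei of the same 8 mice, in CPM of summed mRNA counts, for Ctrl and cKOt mice at ZT4 and ZT16, on an axis that is linear below 5 CPM and logarithmic above. Each point is 1 mouse and lines join the means of ZT4 and ZT16; Arntl lay between 47.8 and 79.6 CPM in the myeloid-like nuclei and between 23.1 and 313 CPM in proximal tubule nuclei.

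Few mRNAs were called by genotype in the myeloid-like nuclei, and the part of tubule RNA in these calls was not tested. Over both times 5 of 7853 were called (0.0637%), 4 higher and 1 lower in cKOt mice, with 412 at an unadjusted p under 0.05. Rhobtb1 was at 39.8 and 41.0 CPM in Ctrl ZT4, 148 and 169 in Ctrl ZT16, 303 and 185 in cKOt ZT4 and 260 and 205 in cKOt ZT16, so that all cKOt libraries lay above all Ctrl libraries (1.57 on the log2 scale). It was also the 1 mRNA of 7382 (0.0135%) that was called between Ctrl ZT16 and ZT4 (1.94 ± 0.35, adjusted p = 0.0406), a call that held in 2 of the 8 fits with a library left out and neither with DESeq2 (adjusted p = 0.235) nor in nuclei with at least 3 of the 6 genes. Proximal tubule nuclei held 316 and 353 CPM in Ctrl ZT4 and 1514 to 2119 CPM in the other 6 libraries, and the pooled level in the myeloid-like nuclei was 0.108 of theirs. Hao2, a peroxisomal hydroxyacid oxidase of tubule cells, was at 0 to 16.9 CPM in Ctrl and 26.6 to 156 CPM in cKOt libraries (3.27). The collagen gene Col6a6 was at 0 to 4.98 and 10.6 to 37.9 CPM (4.40). Their genotype effects differed from those in proximal tubule nuclei by 0.78 ± 0.51 for Hao2 (edgeR adjusted p = 0.87) and 3.63 ± 2.42 for Col6a6 (0.873). Neither difference was called. Cyp2a4, a cytochrome P450 of steroid metabolism, was at 29.9 to 51.4 CPM in Ctrl and 0 to 10.8 CPM in cKOt libraries (-3.28).

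All 5 were also called in the 1567 nuclei, which include the myeloid-like ones, and in the 390 nuclei of the other sub-clusters. In proximal tubule nuclei Cyp2a4 was at 23.9 to 32.5 CPM in Ctrl and 2.51 to 3.84 CPM in cKOt libraries. This was a lower level than in the myeloid-like nuclei, with a ratio of 1.86 between both pools. Of the 126 Cyp2a4 counts in the 1567 nuclei, 74 (58.7%) lay in the 390, which held 56.7% of all UMIs. The cells that gave these counts were not identified, and the part of tubule RNA in the difference was not tested. Leaving out each library in turn, Npas2 and Rhobtb1 kept the call in 8 of 8 fits, Hao2 in 7, Cyp2a4 in 4 and Col6a6 in 1. DESeq2 called only Rhobtb1 (adjusted p = 0.00186). At ZT4 alone 3 of 7188 mRNAs were called (0.0417%), Npas2, Rhobtb1 and the stress-responsive gene Ndrg1, at 99.5 and 191 CPM in Ctrl and 515 and 312 CPM in cKOt mice, called in 3, 7 and 3 of the 8 fits with a library left out. At ZT16 none of 7190 was called by edgeR or DESeq2 (0%), with 329 at an unadjusted p under 0.05. A pooled sum cannot tell fewer cells of a kind from less RNA per cell.

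Over all 1567 nuclei the genotype comparison called 36 of 10592 mRNAs (0.34%), 15 higher and 21 lower in cKOt mice. Apart from Arntl, Npas2 and Rhobtb1 they were largely genes of tubule metabolism and transport. A median of 86.1% of their UMIs in the 1567 nuclei lay in the 390 nuclei of the other sub-clusters (44.2 to 99.4%). Over all genes those 390 held 56.7% of the UMIs. Among them 27 of 8917 mRNAs were called (0.303%), 21 of the 36 included, and they are part of the sum that gave the 36. Ces1d, a carboxylesterase, fell by 2.57 on the log2 scale, and Hsd11b1, which regenerates active glucocorticoid, by 1.45. Slc7a12, an amino acid transporter, rose by 3.68 and Ddc, the enzyme that makes dopamine, by 1.46. Slc7a12 was at 0 to 30.3 CPM in Ctrl and 75.0 to 234 CPM in cKOt libraries of the 390 nuclei, but at 0 in 4 of 8 libraries of the myeloid-like nuclei. Of the clock list, 4 of 17 tested genes were called, Arntl and Npas2 higher and Nr1d2 (-1.30) and Tef (-0.81), an output factor, lower in cKOt mice. At ZT4 alone 17 of 9924 (0.171%) and at ZT16 alone 14 of 10148 mRNAs (0.138%) were called.

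Fewer mRNAs were called by time of day than by genotype, whereas more had an unadjusted p under 0.05. None of 7853 mRNAs in the myeloid-like nuclei was called between ZT16 and ZT4 over both genotypes (0%) by edgeR or DESeq2, with 496 (6.32%) at an unadjusted p under 0.05, against 412 by genotype, nor was any of 6977 in cKOt mice alone (0%; 427 under 0.05, none by DESeq2). A difference of the time effect between genotypes was called for none of 7853 mRNAs (0%; 348 under 0.05, none by DESeq2). In all 1567 nuclei 5 of 10387 mRNAs were called between times in Ctrl mice (0.0481%), none of 9520 in cKOt mice (0%; 545 under 0.05, 1 by DESeq2) and 1 of 10592 over both genotypes (0.00944%; 886 under 0.05, against 662 by genotype). The order of the counts was not stable, as the myeloid-like nuclei gave 11 calls by time over both genotypes without cKOt ZT4 replicate 1 and, without a filter on low counts, 19 by time and 12 by genotype. The 5 were Npas2 (2.92), Rhobtb1 (2.02), the gluconeogenic gene Pck1 (1.46) and Ndrg1 (1.57), higher at ZT16, and the receptor kinase gene Alk (-2.28), each called in 2 to 5 of the 8 fits with a library left out. Alk was also the gene called over both genotypes, at 59.9 to 148 CPM in the ZT4 libraries and 24.9 to 37.0 CPM in the ZT16 libraries (-1.60 ± 0.23, adjusted p = 0.0299), and kept that call in 2 of the 8 fits with a library left out. It had 17 counts in all in the myeloid-like nuclei and 287 in the other 390, and proximal tubule nuclei held 147 to 177 CPM in Ctrl ZT4 and 20.0 to 20.7 CPM in Ctrl ZT16.

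**Figure D4:**
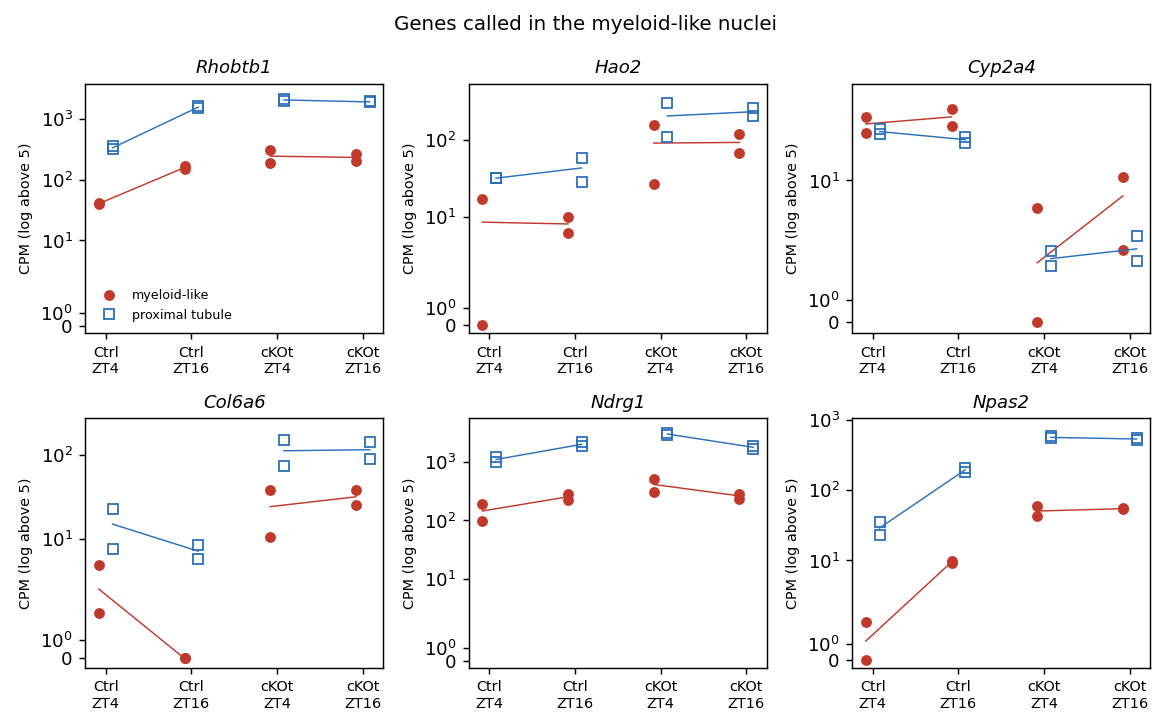
Level of the 6 mRNAs called by genotype or time in the myeloid-like nuclei, in CPM of summed mRNA counts, there and in proximal tubule nuclei, with 1 point per mouse, lines between the means and an axis that is linear below 5 CPM and logarithmic above. Rhobtb1 ran from 39.8 to 303 CPM in the myeloid-like nuclei and from 316 to 2119 CPM in proximal tubule nuclei.

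Genes of macrophage function were compared by list. Single genes of a list were picked by a small p, so a lack of overlap follows partly from that choice. Leaving out the genes of the rule, no gene of the 21 myeloid and function lists was called by time or genotype in the myeloid-like nuclei, apart from Npas2 in the clock list, against 0.0637% of all mRNAs called by genotype and 0% by time. The median time difference of all mRNAs was 0.00 on the log2 scale. Of 11 MHC class II genes tested, 8 were higher at ZT16 and 3 lower, with a median of 0.20. H2-Aa, a chain of the antigen-presenting molecule, was at 494 to 830 CPM at ZT4 and 839 to 1108 CPM at ZT16, without overlap (0.44 ± 0.14, adjusted p = 0.47), and Ciita, the activator of these genes, differed by 0.34 (adjusted p = 0.715). Of 13 resident macrophage genes 11 were higher at ZT16 (median 0.16). General myeloid genes were split, 16 higher and 8 lower (median 0.09), with Csf2ra, the receptor chain for GM-CSF, at 304 to 368 CPM at ZT4 and 405 to 545 CPM at ZT16 (0.57 ± 0.15, adjusted p = 0.208).

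Lipid handling genes had a median of 0.08 over 13 tested. Its leading gene Abcg1, a cholesterol exporter, was at 46.4 to 82.1 CPM at ZT4 and 97.2 to 148 CPM at ZT16, without overlap (0.99 ± 0.25, adjusted p = 0.208), and Abca1, its partner in export, differed by 0.51 (adjusted p = 0.712). Of 15 heat shock and temperature genes 12 were higher at ZT16 (median 0.25), with the chaperone gene Hspa8 at 75.9 to 133 CPM at ZT4 and 140 to 235 CPM at ZT16 (0.96 ± 0.22, adjusted p = 0.113). Hspa8 was also at 67.2 to 193 CPM in ZT4 and 153 to 244 CPM in ZT16 libraries of proximal tubule nuclei. The other function lists had medians from -0.15, for pattern recognition, to 0.20, for the 3 proliferation genes tested, leaving out the single neutrophil gene tested. Among markers of other cells, those of the loop, distal tubule and collecting duct were higher at ZT16 for 6 of 8 (median 0.25), as much as the heat shock genes, those of the proximal tubule for 5 of 12 (-0.09) and those of endothelial cells for 1 of 6 (-0.14), none of them called. Summed over the list, the loop, distal tubule and collecting duct markers were at 725 to 1145 CPM of all UMIs at ZT4 and 985 to 1469 CPM at ZT16, which overlapped, and their part in the time differences was not tested.

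By genotype, 8 of 11 MHC class II genes were lower in cKOt mice (median -0.26, against 0.00 over all mRNAs), as were 18 of 24 general myeloid genes (-0.07), 6 of 8 complement genes (-0.17), 11 of 17 pattern recognition genes (-0.22) and 9 of 13 resident macrophage genes (-0.18), and none was called. Heat shock genes ran the other way, 12 of 15 higher in cKOt mice (median 0.26). The other function lists had medians from -0.20, for the 3 proliferation genes tested, to 0.13, for immediate early genes, with 8 of 14 interferon genes lower (-0.06), 8 of 15 phagocytosis genes lower (-0.02) and 3 of 5 monocyte genes higher (0.10), again leaving out the single neutrophil gene. H2-DMb1, which loads peptides, gave -0.56 ± 0.21 (adjusted p = 0.883) and Cd74, the invariant chain, -0.29 ± 0.12 (adjusted p = 0.942). Summed over the list, MHC class II genes were at 4868 and 4971 CPM of all UMIs in Ctrl ZT4, 5571 and 5366 in Ctrl ZT16, 3617 and 4522 in cKOt ZT4 and 5104 and 5245 in cKOt ZT16, and general myeloid genes at 16532 to 19981 CPM, both lowest in cKOt ZT4 replicate 1. That library was also the highest for heat shock genes, at 2010 CPM against 1029 to 1713 CPM in the others, and Hsph1 stood at 255 CPM there against 12.1 to 89.4 CPM elsewhere (1.62 ± 0.47 by genotype, adjusted p = 0.569). It was likewise the highest library for Hsph1 in proximal tubule nuclei, at 229 CPM. Proximal tubule markers were higher in cKOt mice for 7 of 12 (median 0.18), loop, distal tubule and collecting duct markers for 6 of 8 (0.24) and endothelial markers for 3 of 6 (0.00), none of them called, and their part in the genotype differences was not tested.

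**Figure D5:**
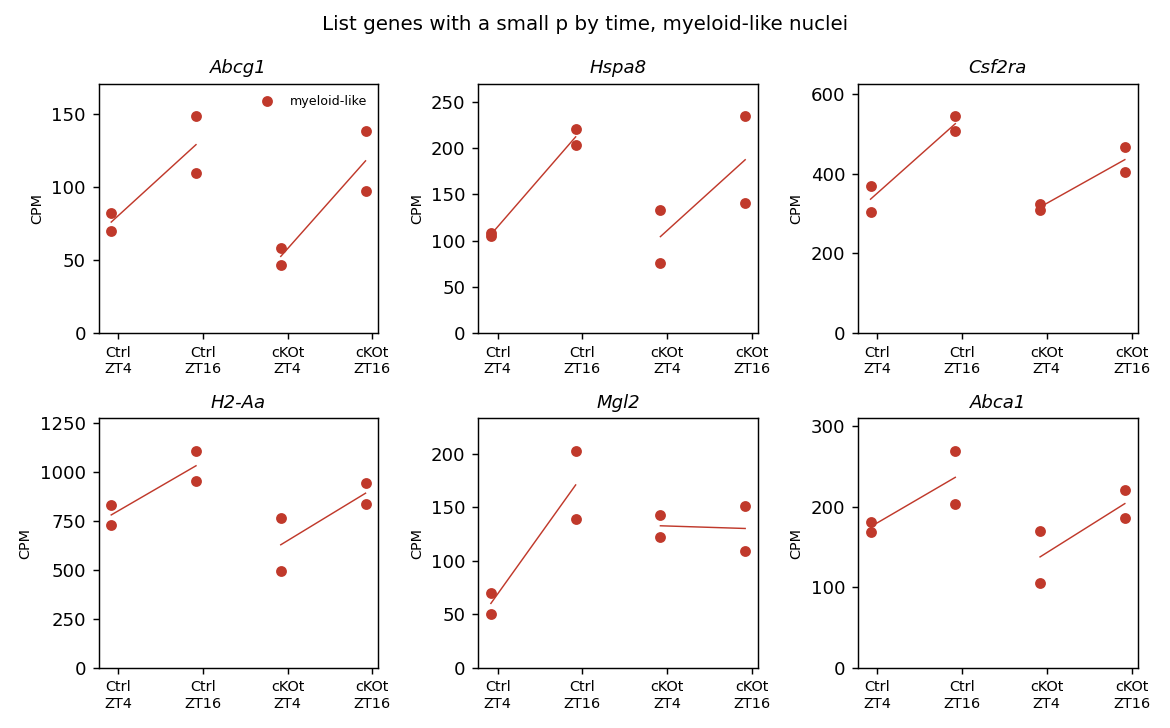
Level of 6 list genes with a small p by time in the myeloid-like nuclei, in CPM of summed mRNA counts, with 1 point per mouse and lines that join the means of ZT4 and ZT16. H2-Aa, Abcg1, Csf2ra, Hspa8 and Abca1 did not overlap between ZT4 and ZT16. Mgl2 was at 109 and 151 CPM in cKOt ZT16 against 122 and 143 CPM in cKOt ZT4, and none of the 6 was called. As these genes were picked by a small p by time, the lack of overlap follows partly from the choice. The share of all mRNAs without overlap is not given.

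The genotype effect in the myeloid-like nuclei differed from that in proximal tubule nuclei for 11 of 7853 mRNAs (0.14%), 4 with a higher and 7 with a lower effect. No mRNA was called without cKOt ZT16 replicate 1 or without cKOt ZT16 replicate 2, and 6 to 13 were without any other library. In all 1567 nuclei it differed for none of 10592 (0%; edgeR, 482 at an unadjusted p under 0.05). None of the 11 was called by genotype within the myeloid-like nuclei, and 10, Arntl among them, were called within proximal tubule nuclei. There 144 of 15072 mRNAs were called (0.955%). The same sums entered the test that picked the 11, so these calls follow partly from the choice and are no separate evidence. Lcp1, an actin-bundling protein of leukocytes, was at 1003 to 1252 CPM in all 8 myeloid-like pools (0.04 by genotype), whereas it fell from 34.0 to 47.5 CPM in Ctrl to 16.4 to 25.8 CPM in cKOt libraries of proximal tubule nuclei (-1.03), a difference of 1.07 ± 0.16 (adjusted p = 0.00304). Wsb1, a ubiquitin ligase subunit, gave 0.00 and 1.39 (difference -1.33 ± 0.20, adjusted p = 0.00304), and Ppard, a nuclear receptor of fatty acid metabolism, -0.11 and 1.42 (-1.51 ± 0.27, adjusted p = 0.0152). Fkbp5, a target of the glucocorticoid receptor, was the exception, with 0.14 and -1.22, not called in either (1.34 ± 0.22, adjusted p = 0.00654). The time effect in Ctrl mice differed for Arntl alone, 1 of 7382 mRNAs in the myeloid-like nuclei (0.0135%) and 1 of 10387 in the 1567 nuclei (0.00963%).

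Against endothelial nuclei the time effect over both genotypes differed for 6 of 7853 mRNAs in the myeloid-like nuclei (0.0764%), all with the higher effect in the myeloid-like nuclei. The count was 12 without Ctrl ZT4 replicate 2, 3 without cKOt ZT4 replicate 2 or cKOt ZT16 replicate 1 and 2 without cKOt ZT16 replicate 2, and Adam19 was called in all 8 fits with a library left out. Pik3cd, a leukocyte PI3 kinase, was at 236 to 448 CPM in the myeloid-like pools, with a time difference of 0.32, and at 8.31 to 13.2 CPM at ZT4 and 2.69 to 4.42 CPM at ZT16 in endothelial nuclei, with -1.51. Adam19, a membrane protease, was at 209 to 306 CPM in the myeloid-like pools and fell in endothelial nuclei from 85.9 to 143 CPM at ZT4 to 51.6 to 60.8 CPM at ZT16 (difference 1.18). In all 1567 nuclei 3 of 10592 mRNAs differed (0.0283%), Ptger3, Slc12a1 and Kcnk5, none of them among the 6 of the myeloid-like nuclei. Slc12a1 and Ptger3 were among the leading genes of the 36 loop of Henle nuclei outside the myeloid-like sub-clusters. They stood at 18648 and 1090 CPM of mRNA UMIs there, against 469 and 36.8 CPM in the other chosen nuclei.

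In one gene the time effect differed between genotypes, 1 of 10592 mRNAs in the 1567 nuclei (0.00944%). Slit3, a guidance ligand, was at 91.2 and 87.7 CPM in Ctrl ZT4, 12.4 and 31.7 in Ctrl ZT16, 12.5 and 5.81 in cKOt ZT4 and 77.4 and 79.3 in cKOt ZT16, high at ZT4 in Ctrl and at ZT16 in cKOt mice (5.19 ± 0.62, adjusted p = 0.00291). In the myeloid-like nuclei it had 18 counts in all, and it came from the other sub-clusters, with 223 counts.

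Few lncRNAs differed. None of 353 in the myeloid-like nuclei was called by time (0%; 35 under an unadjusted p of 0.05, none by DESeq2) and 1 by genotype (0.283%), Malat1, an abundant nuclear lncRNA, which stood at 682910 to 743810 CPM of lncRNA counts in Ctrl and 772610 to 786150 CPM in cKOt libraries (0.14 ± 0.02, adjusted p = 0.000937). It lost the call with the size factors of DESeq2 in edgeR, with at least 10 counts and with at least 3 of the 6 genes. With a library left out, 0 to 2 lncRNAs were called by genotype. In all 1567 nuclei 6 of 860 lncRNAs were called by time (0.698%), 3 in each direction, and 5 by genotype (0.581%), led by Gm13936, which rose by 3.12 on the log2 scale (adjusted p = 6.35e-06) and was called as well in the 390 nuclei of the other sub-clusters (3.14).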

How the data were processed

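The authors deposited, for each of 8 libraries, a 10x matrix of raw UMI counts per gene and nucleus, made, per the labels, with bcl2fastq 2.20 and Cell Ranger 7.1.0; the labels name GRCm39 and no coordinates were used. Quality filters asked of a nucleus 500 genes and 800 UMIs or more, with a mitochondrial share of 2% or less. The counts of the chosen nuclei were summed per library (pseudo-bulk), mRNAs and lncRNAs apart. edgeR 4.0.16 (TMM, quasi-likelihood) fitted 1 model of the 4 groups, each with 2 mice, over genes with at least 5 counts in both libraries of a compared group, with Benjamini-Hochberg adjustment and a call at 0.05. Differences between classes of nuclei used the library as block. Errors of log2 differences are approximate SEs, the absolute log2 difference divided by the square root of the F statistic of the edgeR test. They can be unreliable, as for Npas2 in the time effect of myeloid-like against endothelial nuclei, with -0.02 ± 6.10. Values per library are CPM after TMM scaling, except those pooled over libraries or summed over a list, which are CPM of all UMIs unless said otherwise.

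Sub-clusters came from scanpy 1.11.5 (Leiden, resolution 0.5). Myeloid-like sub-clusters had at least 3 general myeloid genes 2-fold above the other chosen nuclei and in 10% of the sub-cluster, and more such genes than any list of other cells. Shares were compared with exact permutation tests. Named genes were every tested clock gene, in each contrast and direction up to 5 called mRNAs and 3 called lncRNAs with the smallest p among those without overlap, up to 3 genes of each list with the smallest p by time, 25 mRNAs and 5 lncRNAs with the highest ratio to other nuclei, and the markers; genotype values of list genes, Lcp1 and other genes of the class differences, Mir142hg and leading genes of sub-clusters were chosen after their values were seen. The choice of nuclei, the lists and the tests were made with earlier results of these data known. Intervals and tests rest on 2 mice per group. Alternatives were DESeq2 1.42.0 and its size factors in edgeR, other filters, a replicate block, other definitions of the nuclei and each library left out. Scripts were tested on simulated data.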

Additional observations from a re-analysis of the deposited data

Results flagged for a closer look

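The results here are differences of an effect between 2 classes of nuclei of the same libraries, or between genotypes, each past an adjusted p of 0.05 in edgeR, and they are given as values on the log2 scale with no explanation. With a lower genotype effect in the myeloid-like nuclei than in proximal tubule nuclei stood Arntl (-1.84), Dtx4 (-1.58), Ppard (-1.51), Ypel2 (-1.40), Wsb1 (-1.33), Arhgap26 (-0.96) and Wipf1 (-0.79). With a higher one stood Tpcn2 (1.36), Fkbp5 (1.34), Lcp1 (1.07) and Dgkh (0.92). None of these 11 was called by genotype within the myeloid-like nuclei, and 10 were called within proximal tubule nuclei, Fkbp5 being the exception (adjusted p = 0.321 there). Over all mRNAs 0.955% were called there. The same sums entered the test that picked the 11, so these calls follow partly from the choice. With a library left out, 0 mRNAs were called without cKOt ZT16 replicate 1 or cKOt ZT16 replicate 2 and 6 to 13 without any other library.

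The time effect on Arntl in Ctrl mice differed from that in proximal tubule nuclei by -3.04 in the myeloid-like nuclei and by -1.89 in all chosen nuclei. Against endothelial nuclei the time effect over both genotypes was higher in the myeloid-like nuclei for Pik3cd (1.86), Adam19 (1.18), Creb5 (0.92), Gng2 (0.87), Myh9 (0.81) and Fli1 (0.67), of which Adam19 and Pik3cd remained called without cKOt ZT16 replicate 2. In all chosen nuclei it was lower for Ptger3 (-1.82) and Slc12a1 (-1.06) and higher for Kcnk5 (1.22), and none of these 3 was called by time in the chosen nuclei (adjusted p = 0.54, 0.416 and 0.465). Ptger3 and Slc12a1 were among the leading genes of the 36 loop of Henle nuclei outside the myeloid-like sub-clusters. Between genotypes the time effect on Slit3 differed by 5.19 in all chosen nuclei.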

How the results depend on the processing

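The limits are the small number of mice, 2 per group, the few UMIs per nucleus and the tubule transcripts in the sums. Of the counts of called genes and the differences of shares, 196 values stayed, 173 moved and 2 reversed. A count stayed if it was within 1.5 times the reported count. A difference of shares stayed if it kept its sign and its side of the threshold in the exact permutation test. For the time difference over both genotypes of the clock genes and Alk, 464 values stayed on their side of the threshold. Another 10 passed it and 8, all of Alk, missed it. No clock gene was called in the reported fits, so for these genes staying means only that they were again not called. Their signs could still change. With a library left out, Per1 ran from -0.343 to 0.696 in the chosen nuclei, for example. For the mRNAs called in the myeloid-like nuclei, the fits with a library left out stand beside their values. Where a count moved, the cause was not tested beyond what the setting itself changes, that is, the genes or samples entered.

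For the 7 mRNA contrasts in the chosen nuclei, in the order Ctrl time, cKOt time, genotype at ZT4, genotype at ZT16, time over both, genotype over both and the difference of time effects, the calls without a filter on low counts were 101, 65, 93, 96, 130, 138 and 38. With DESeq2 they were 1 for cKOt time, 8 for time over both and 3 for the difference of time effects, and for lncRNAs 0 by time and 2 by genotype. With at least 10 counts Ctrl time gave 3. With at least 3 of the 6 genes the calls were 2, 1, 1, 1, 0 and 3, leaving out cKOt time, which kept 0, and lncRNAs gave 0 and 0. Without doublets time over both gave 5 and lncRNAs 2 and 2. In the 53 nuclei without tubule UMIs nothing was called. With equal numbers of nuclei per library the calls were 2 for Ctrl time, 9 for genotype at ZT16, 0 for time over both, 16 for genotype over both and 3 for lncRNAs by genotype. In the myeloid-like nuclei they were 1, 0, 3, 0, 0, 5 and 0, and 0 and 1 for lncRNAs. Fitting mRNAs and lncRNAs together, lncRNAs by time gave 0.

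Leaving out each library in turn, the 7 counts ran from 0 to 8, 0 to 4, 3 to 24, 2 to 17, 0 to 8, 16 to 55 and 1 to 3, and lncRNAs from 0 to 3 by time and 1 to 12 by genotype. For genotype over both the count was 55 without cKOt ZT4 replicate 2, 16 without cKOt ZT16 replicate 1, 18 without cKOt ZT4 replicate 1, 21 without Ctrl ZT4 replicate 2, 22 without Ctrl ZT16 replicate 2 and 20 without cKOt ZT16 replicate 2. The share of chosen nuclei differed by time by -0.325 to 0.0506 and by genotype by -0.531 to -0.166 percentage points; the sign by time reversed without Ctrl ZT4 replicate 2 (0.0506) and with at least 3 of the 6 genes (0.0129).

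In the myeloid-like nuclei, settings added after the data had been seen gave, without a filter, 2, 4, 6, 2, 19, 12 and 1 calls and 1 lncRNA by time. DESeq2 gave 0 for Ctrl time, 1 for genotype at ZT4 and 1 for genotype over both. At least 10 counts gave 1 for time over both, 3 for genotype over both, and 4 and 0 lncRNAs. At least 3 of the 6 genes gave 0, 1 and 3 for Ctrl time, genotype at ZT4 and genotype over both, and 1 and 0 lncRNAs. Without doublets time over both gave 1 and lncRNAs by time 1, and the size factors of DESeq2 gave 0 lncRNAs by genotype. With a library left out the counts ran from 0 to 1, 0 to 3, 0 to 13, 0 to 1, 0 to 11, 3 to 12 and 0 to 2, with 11 for time over both without cKOt ZT4 replicate 1 and 12 for genotype over both without cKOt ZT4 replicate 2, and lncRNAs from 0 to 3 and 0 to 2.

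The differences between classes of nuclei gave 34, 72 and 108 calls without a filter, for genotype and Ctrl time against proximal tubule nuclei and time against endothelial nuclei, 11, 1 and 6 in the myeloid-like nuclei, 0 and 0 for both time differences without tubule UMIs, 0 against endothelial nuclei with at least 3 of the 6 genes, and 0 to 1, 0 to 1 and 0 to 28 with a library left out.

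Replicate numbers name mice and no source ties equal numbers to a litter or batch; deviations of equal numbers correlated at -0.0675 to 0.0733 in the chosen nuclei and -0.0417 to 0.0594 in the myeloid-like nuclei. With a replicate block the 7 counts were 4, 0, 14, 15, 3, 35 and 1 in the chosen nuclei, with 6 and 5 lncRNAs, and 0, 0, 1, 0, 0, 6 and 0 in the myeloid-like nuclei, with 0 and 1 lncRNAs.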

Other observations

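Csf1r, which the rule used, was also frequent in nuclei with a proximal tubule profile that held Cyp7b1, the gene that led a sub-cluster of 138 chosen nuclei. Nuclei with UMIs of Lrp2 and Slc34a1, without Skap1 or Flt1, and with at least 5 UMIs of Cyp7b1 numbered 2544, chosen nuclei included, with a median of 7402.5 UMIs. Of these, 52.4% had a Csf1r UMI, against 4.93% of 23133 such nuclei without Cyp7b1, with a median of 4706 UMIs. The pooled level was 121 CPM, from 73.2 to 194 CPM over the 8 libraries, against 11.7 CPM, from 8.72 to 17.1 CPM, so the libraries did not overlap. For Cx3cr1 the share of nuclei was 4.99% against 3.13% and the level 6.09 against 6.56 CPM, with libraries that overlapped. Without the chosen nuclei, which the rule picked partly by this gene, the Cx3cr1 share was 1.81% against 2.46% and the level 2.19 against 4.63 CPM, so the direction of the share depended on them, whereas Csf1r was seen in 50.5% against 4.0%. With the chosen nuclei, Adgre1 was at 0.646 against 6.97 CPM, C1qa at 0.646 against 1.99 CPM, C1qb at 0.646 against 2.08 CPM and Mrc1 at 1.43 against 4.78 CPM. This comparison was made after the sub-cluster had been seen and was not tested.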
